A study of Homo sapiens with 31 samples.

Results

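The nuclear genome encodes most subunits of respiratory complex I and the factors that put it together, and 46 of the 74834 rows of the expression table belong to these genes. The rows were taken by their symbol alone (NDUFA, NDUFAB, NDUFB, NDUFC, NDUFS, NDUFV or NDUFAF followed by a number), and the rule uses no measured value, although the gene group was picked with earlier results of these data known. Of the 46 rows, 45 had a mean normalized read count of at least 10 over all libraries and were tested. They comprise 33 rows of subunits, 7 rows of NDUFAF assembly factors, NDUFA4 and its paralogue NDUFA4L2, and 3 antisense transcripts. The pseudogene NDUFAF4P1 had a mean of 1.36 and was not tested, whereas the tested row nearest to the limit, NDUFV2-AS1, had a mean of 21.8. NDUFS3, NDUFB8 and NDUFA13 each share their row with a neighbouring gene (PTPMT1, SEC31B and YJEFN3), so their values cannot be assigned to the subunit alone.

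Complex I is the entry point of electrons from NADH into the mitochondrial respiratory chain. A peripheral arm holds the N module, which oxidizes NADH, and the Q module, which reduces ubiquinone, while the membrane arm pumps protons. Core subunits carry the redox centres, accessory subunits surround and stabilize them, and assembly factors join prebuilt modules and then leave the finished enzyme. NDUFA4 was first purified with complex I and is now regarded as a subunit of complex IV. NDUFA4L2 is a known target of hypoxia-inducible factor that lowers complex I activity in low oxygen.

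Polyadenylated RNA was sequenced from the established lung carcinoma line H460 after 6 h of treatment, in 31 libraries of 8 groups. Control cells received no agent per the labels. The agent B87 (BAY87-2243, given at 1 µM) inhibits complex I itself. DMKG, given at 5 mM, stands for dimethyl α-ketoglutarate, which enters cells and carries an intermediate of the tricarboxylic acid cycle. Nutlin-3 at 30 µM and Rita at 50 µM are compounds known to block the contact of p53 with the ubiquitin ligase MDM2. The remaining groups were B87+DMKG, B87+DMKG+Nutlin-3 and B87+DMKG+Rita at the same concentrations. Each group had 4 libraries except Nutlin-3, which had 3, and each sample pooled 2 culture wells. Since nothing in the labels makes the replicates independent experiments, each p-value reflects only how much these samples varied, and that variation may be technical.

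The libraries held 33.44 to 82.49 M reads (M, 1e6 reads, median 63.09 M), recovered from the normalized values. Of epithelial markers, KRT8 had a mean of 102325 normalized counts and KRT18 of 73205, while EPCAM had a mean of 50.8 and CDH1 of 2.77. Defining markers of other cell types were near 0, with means of 1.93 for PTPRC and 0.504 for PECAM1, although CD14 had a mean of 175, PDGFRB of 208 and COL1A1 of 683. The share of normalized counts from the mitochondrial genome was 1.84% ± 0.284 (SD, n = 4) in Control and 4.84% ± 2.21 (n = 4) in B87+DMKG. It exceeded 4% in 6 libraries, namely B87+DMKG 1, 2 and 3, Nutlin-3 2 and 3, and Rita 4. Values of single members that moved by over 1.5 times or lost their call without these libraries are given both ways. Rows that are not members are given with all libraries only. Without these 6 libraries, 1 library each of B87+DMKG and Nutlin-3 is left and is assumed to vary like the other groups. With all libraries, however, the median SD of members (log2) was 0.203 in B87+DMKG and 0.145 in Nutlin-3, against 0.065 to 0.142 in the other groups. Calls without the 6 libraries therefore rest on 1 library of these groups and may be too lenient. Library totals after normalization also differed, from 55.1 ± 1.11 M (SD, n = 4) in Control to 65.9 ± 1.27 M (n = 4) in B87+DMKG+Rita. When totals were made equal, the median over all rows in B87+DMKG+Rita against Control shifted by -0.25 (log2). Where equal totals turned the balance of calls, the resulting counts stand beside the main ones.

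With B87 alone, an inhibitor of the finished enzyme, no complex I transcript passed the test. None of the 45 members passed the test with limma (adjusted p under 0.05), none had an unadjusted p under 0.05, and none was called by edgeR or DESeq2. Among all 16259 tested rows 0.0431% were called, 0.0308% higher and 0.0123% lower. Log2 fold changes of the 33 subunit rows lay between -0.13 and 0.12, and the smallest adjusted p of any member was 0.958. A difference from Control was not detectable with 4 libraries per group, which does not show that the levels are equal.

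DMKG alone raised NDUFA4L2 more than any other member. NDUFA4L2 (chr12:57628686-57634545, hg19) had 104, 110, 87.1 and 136 normalized counts in the Control libraries and 876, 806, 861 and 810 in the DMKG libraries. The groups did not overlap, and the means differed 7.69-fold. B87+DMKG libraries held 128, 124, 159 and 222 counts, far below every DMKG library and partly within the range of Control. The B87 libraries held 109, 98.0, 121 and 131 counts and overlapped Control. The log2 fold change was 2.95 ± 0.21 (SE) with DMKG (adjusted p = 1.06e-12) and -2.44 ± 0.21 from DMKG to B87+DMKG (adjusted p = 2.21e-11). The departure of the combination from the sum of its parts was -2.52 ± 0.29 (adjusted p = 3.19e-08). This gene rose in the other treatments by less than with DMKG, with 318, 164 and 339 counts in Nutlin-3, 125, 180, 172 and 177 in Rita, 250, 148, 245 and 222 in B87+DMKG+Nutlin-3, and 166, 166, 185 and 234 in B87+DMKG+Rita. Against Control these were changes of 1.27 ± 0.22 (adjusted p = 3.59e-05), 0.58 ± 0.21 (adjusted p = 0.0183), 0.97 ± 0.21 (adjusted p = 0.000174) and 0.78 ± 0.21 (adjusted p = 0.00159). The smallest change was 0.51 ± 0.21 in B87+DMKG (adjusted p = 0.0323). It lost its call by edgeR, which also left out B87+DMKG replicate 4 (0.30, adjusted p = 0.226), and with limma without that replicate (0.34, adjusted p = 0.167). The call was also lost without B87+DMKG replicate 3 (0.49) or Control replicate 1 (0.49) or 3 (0.41). Without the 6 libraries of high mitochondrial share, only replicate 4 of B87+DMKG is left and the change was 1.04. The change with Rita lost its call with equal totals (0.41, adjusted p = 0.0974) and without Control replicate 3 (0.48) or Rita replicate 2 (0.53).

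NDUFA4 (chr7:10971580-10979813, hg19), which shares ancestry with NDUFA4L2, followed another order. Its libraries held 11616, 12657, 12280 and 11196 counts in Control, 10295, 9990, 9199 and 7379 in B87+DMKG, and 15464, 16281, 16250 and 15779 in B87+DMKG+Rita. Every B87+DMKG library lay below and every B87+DMKG+Rita library above every Control library. DMKG, with 14512, 14482, 11848 and 10970 counts, overlapped Control. The remaining groups held 13015, 11880, 12173 and 13302 in B87, 11731, 13238 and 14284 in Nutlin-3, 13333, 15491, 15100 and 14313 in Rita, and 13232, 12706, 15165 and 12799 in B87+DMKG+Nutlin-3. NDUFA4 fell with B87+DMKG (-0.38 ± 0.09, adjusted p = 0.000622) and was higher when Nutlin-3 (0.56 ± 0.09, adjusted p = 6.37e-06) or Rita (0.80 ± 0.09, adjusted p = 7.07e-09) was added to it. Without the 6 libraries of high mitochondrial share the fall was larger, at -0.69, as was the rise with Nutlin-3 added (0.86). NDUFA4 was called higher than Control in B87+DMKG+Rita and in Rita, but with equal totals these changes were 0.16 and 0.11 and not called.

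**Figure D1:**
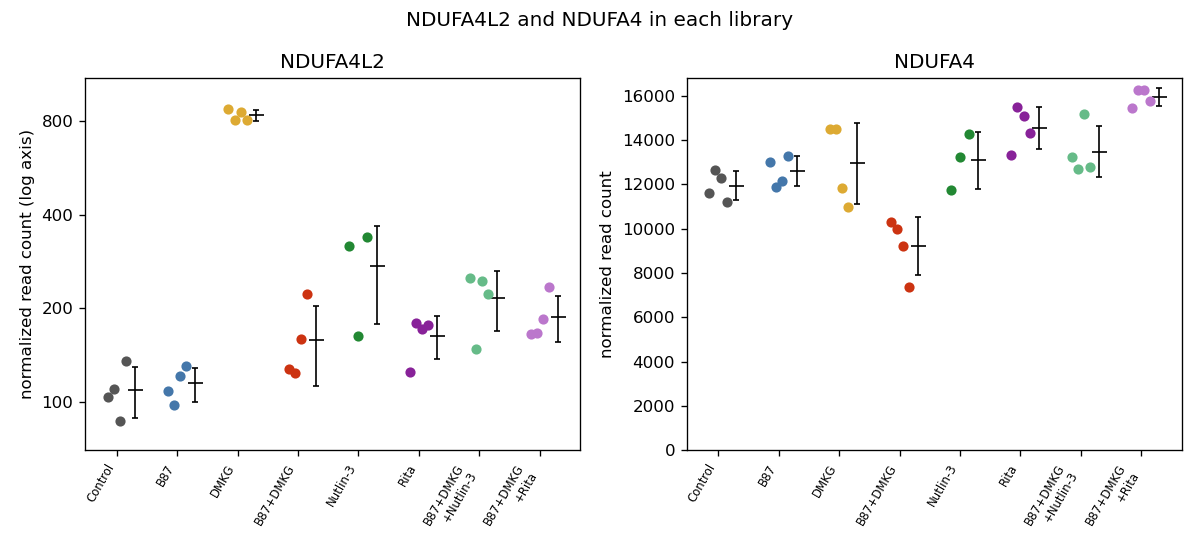
Normalized read counts of NDUFA4L2 (left, log axis) and NDUFA4 (right, linear axis from 0) in each library (points, 4 per group and 3 for Nutlin-3) with the mean and SD of each group (bar). The 4 DMKG libraries of NDUFA4L2 lie between 806 and 876, above every other library, whereas the 4 B87+DMKG libraries of NDUFA4 lie below every other library.

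Beyond NDUFA4L2, DMKG alone called few members. Of 45 members 6 rose and 4 fell, which is 22.2% against 41.4% of all tested rows (19.6% higher, 21.8% lower), and their median log2 fold change was 0.10 against 0.03 over all rows. The split depended on the DMKG libraries. It was 10 higher and 1 lower without DMKG replicates 3 and 4, and 3 higher and 5 lower without replicates 1 and 2. In each of these settings 6 calls were shared with the full set. NDUFV1, the core subunit that binds NADH, rose by 0.43 ± 0.11 (SE, adjusted p = 0.00208), NDUFAF3, an assembly factor of the Q module, by 0.35 ± 0.13 (adjusted p = 0.0302) and NDUFS1, a core iron-sulfur subunit, by 0.17 ± 0.07 (adjusted p = 0.0365). NDUFV3, an accessory subunit of the N module, fell (-0.45 ± 0.07, adjusted p = 1.4e-05), as did NDUFAF4 (-0.25 ± 0.08, adjusted p = 0.00854) and NDUFAF7 (-0.25 ± 0.09, adjusted p = 0.0312). With equal totals the split was 2 higher and 5 lower, and NDUFS1 (0.06) and NDUFAF3 (0.24) lost their calls. Single libraries also ended these calls: for NDUFS1 each Control library (0.17 to 0.18) and DMKG 1 (0.14) or 2 (0.15), for NDUFAF3 Control 1 (0.27) and DMKG 2 or 3 (0.34 each), and for NDUFAF7 Control 3 (-0.20) and DMKG 2 (-0.23) or 4 (-0.24).

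With B87 and DMKG together, more complex I members fell than rose. Of 45 members 19 fell and 6 rose, against 30.8% and 30.2% of all rows (61.0% called in either direction). The share of members lower was 42.2% and the share higher 13.3%, and the median log2 fold change was -0.13 over the members and 0.00 over all rows. In bulk RNA of a treated culture, fewer cells carrying a transcript and less of it per cell cannot be told apart. The members that fell furthest were NDUFAF6 (-0.93 ± 0.10 SE, adjusted p = 1.9e-09), NDUFA2 (-0.93 ± 0.12, adjusted p = 1.2e-07), NDUFAF4 (-0.91 ± 0.08, adjusted p = 1.67e-11) and NDUFB6 (-0.81 ± 0.10, adjusted p = 3.67e-08). Against DMKG alone, 20 members fell and 6 rose where 60.1% of all rows were called (29.3% lower, 30.8% higher). Neither equal totals (6 higher, 19 lower) nor a block on replicate number (6 higher, 19 lower) changed the counts against Control. Without the 6 libraries of high mitochondrial share 15 fell and 7 rose, 17 of them among the 25 called with all libraries. The comparisons share libraries, so their values are given side by side and not as separate evidence.

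**Figure D2:**
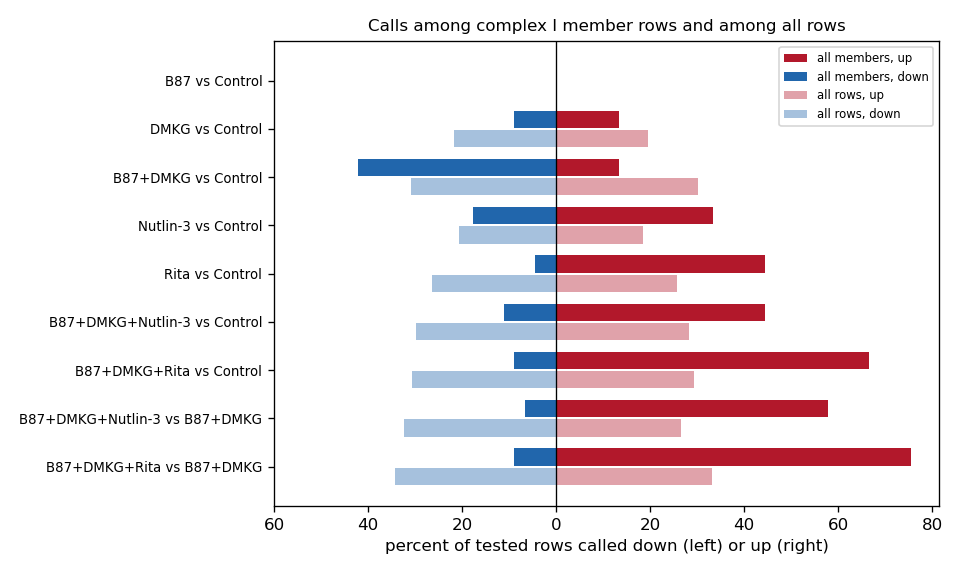
Percent of tested rows called lower (bars to the left) and higher (bars to the right) at an adjusted p under 0.05, for the 45 complex I members (dark) and all 16259 rows (pale) in 9 comparisons. Members lean to the left in B87+DMKG against Control (42.2% lower, 13.3% higher) and to the right in B87+DMKG+Rita against B87+DMKG (75.6% higher, 8.89% lower).

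Among the member rows, falls were more frequent in some parts of the complex than in others, although differences between the parts were not tested. In B87+DMKG against Control, 4 of 6 core rows fell and 1 rose. Of 11 accessory rows of the distal membrane arm 6 fell and 0 rose. Of 5 accessory rows of the N module 2 fell and 2 rose, where 30.8% of all rows fell and 30.2% rose. Of 7 accessory rows of the proximal membrane arm none fell and 1, NDUFA13 // YJEFN3, rose (0.27 ± 0.11 SE, adjusted p = 0.0313). That call was lost without Control replicate 3 (0.24) or 4 (0.21) or B87+DMKG replicate 3 (0.25) or 4 (0.16), and by edgeR, which also left out the last (0.13). Without the libraries of high mitochondrial share the row gave 0.57 and NDUFA3 gave 0.44. Of the 3 Q module accessory rows only NDUFA5 fell. Rows that the symbol pattern left out are not in these counts and medians. In the proximal arm, the row of NDUFC2 with KCTD14 and NDUFC2-KCTD14 fell (-1.93), and FUT5 // NDUFA11 was not called (-0.22). In the Q module GALNT8 // NDUFA9 fell (-0.74), and in the core the NDUFS8 row rose (0.40). The median log2 fold change was -0.31 for the distal arm, -0.29 for the core, -0.16 for the N module, 0.11 for the proximal arm and 0.14 for the Q module, each over few rows.

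Among the core subunits, NDUFV2 fell by the largest amount of the rows that hold 1 gene in B87+DMKG against Control, at -0.53 ± 0.07 (SE, adjusted p = 2.3e-07). NDUFV2 carries an iron-sulfur cluster of the N module. NDUFS1 (-0.32 ± 0.07, adjusted p = 0.000119) fell too, as did the NDUFS3 // PTPMT1 row (-0.48 ± 0.11, adjusted p = 0.000659). NDUFS7, near the ubiquinone site, gave -0.11 ± 0.17 (adjusted p = 0.615). NDUFV1 rose (0.29 ± 0.11, adjusted p = 0.0233), a call that was lost without B87+DMKG replicate 3 (0.27) or 4 (0.18) or Control replicate 3 (0.26), and by edgeR, which also left out B87+DMKG replicate 4 (0.15), while without the 6 libraries of high mitochondrial share the value was 0.62. Without those libraries NDUFS3 // PTPMT1 (-0.20) was no longer called, and NDUFS7 turned to 0.40. The 4 NDUFS1 values were 10404, 10587, 10572 and 10678 in Control and 9008, 8926, 8152 and 7724 in B87+DMKG, with no overlap. NDUFS8, also a core subunit, shares a row with MIR4691 and MIR7113 that the symbol pattern did not take, and that row rose (0.40 ± 0.10, adjusted p = 0.000938).

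Of the accessory subunits and assembly factors, some moved in opposite directions within the same libraries. NDUFB2 (chr7:140396481-140406446, hg19), in the distal membrane arm, held 3926, 4573, 4159 and 4007 counts in Control and 2022, 1903, 2758 and 3097 in B87+DMKG. NDUFA2 (chr5:140024948-140027370, hg19), in the N module, held 1820, 2032, 1827 and 1787 in Control and 931, 813, 1130 and 1079 in B87+DMKG. In both genes every B87+DMKG library lay below every Control library, at 0.587 and 0.529 of the Control mean. NDUFAF2 (chr5:60240956-60448864, hg19) went the other way, with 4781, 4912, 4460 and 4282 counts in Control and 11310, 13335, 8173 and 7035 in B87+DMKG, 2.16 times the Control mean. This assembly factor is related in sequence to the N module subunit NDUFA12 and holds its place in a late intermediate. NDUFA12 (chr12:95365104-95397489, hg19) held 6143, 6768, 6175 and 5509 counts in Control and 8903, 13721, 8127 and 6934 in B87+DMKG. The B87+DMKG libraries of both genes lay above all Control libraries. Log2 fold changes were -0.80 ± 0.13 for NDUFB2 (adjusted p = 2.67e-06), 1.07 ± 0.17 for NDUFAF2 (adjusted p = 1.98e-06) and 0.57 ± 0.17 for NDUFA12 (adjusted p = 0.00514).

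The promoters of these 4 genes are shown because the genes moved in opposite directions, and they were chosen with that result known. They are the 250 bases before the annotated start, from RefSeq on GRCh38.p14, read 5′ to 3′ on the gene's strand. Capitals mark the core letters of the hypoxia response element (ACGTG or GCGTG) on either strand. The positions are chr12:95003698-95003947 for NDUFA12 and chr5:140647631-140647880 for NDUFA2, both on the minus strand, and chr5:60944955-60945204 for NDUFAF2 and chr7:140696458-140696707 for NDUFB2, both on the plus strand.
NDUFAF2: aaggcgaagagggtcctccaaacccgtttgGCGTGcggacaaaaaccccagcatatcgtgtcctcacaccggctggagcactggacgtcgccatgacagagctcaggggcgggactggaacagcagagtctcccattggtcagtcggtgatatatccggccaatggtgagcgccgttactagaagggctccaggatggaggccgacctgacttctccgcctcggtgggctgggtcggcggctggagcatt
NDUFA12: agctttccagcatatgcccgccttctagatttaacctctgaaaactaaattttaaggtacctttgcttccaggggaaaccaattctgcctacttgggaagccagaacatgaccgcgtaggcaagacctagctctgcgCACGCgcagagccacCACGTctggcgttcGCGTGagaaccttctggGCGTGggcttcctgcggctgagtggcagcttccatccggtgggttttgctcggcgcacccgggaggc
NDUFB2: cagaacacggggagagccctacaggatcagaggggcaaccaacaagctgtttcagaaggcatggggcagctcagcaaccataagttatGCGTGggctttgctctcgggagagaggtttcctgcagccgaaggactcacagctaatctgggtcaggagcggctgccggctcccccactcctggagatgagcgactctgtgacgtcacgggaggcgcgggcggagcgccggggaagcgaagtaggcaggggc
NDUFA2: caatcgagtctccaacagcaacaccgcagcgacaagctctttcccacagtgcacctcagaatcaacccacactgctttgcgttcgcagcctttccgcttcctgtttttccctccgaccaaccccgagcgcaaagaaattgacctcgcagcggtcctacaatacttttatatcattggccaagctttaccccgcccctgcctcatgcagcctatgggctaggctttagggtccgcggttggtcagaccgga
The NDUFA12 window holds 4 matches, NDUFAF2 and NDUFB2 hold 1 each and NDUFA2 holds none, so both genes that rose and 1 of those that fell carry the letters. Promoters of 35 of 42 member rows that are neither antisense nor pseudogene were in the table, and NDUFA4L2 is not among them. Of the 35, 21 (60%) hold the hypoxia letters against 43.21% of all 35116 promoters of the same length. The ETS letters CCGGAAG were in 6 (17.14%, against 8.52%) and the nuclear respiratory factor 1 motif (its palindromic core) in 1, that of NDUFB4 (2.86%, against 1.03%), in each case on either strand. None of these motifs contains another. Members entered with 1 promoter per symbol, whereas the set of all promoters was neither reduced by symbol nor limited by gene type, so the shares are not matched. A match of letters is a description of the window, and no match says nothing of the factor.

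**Figure D3:**
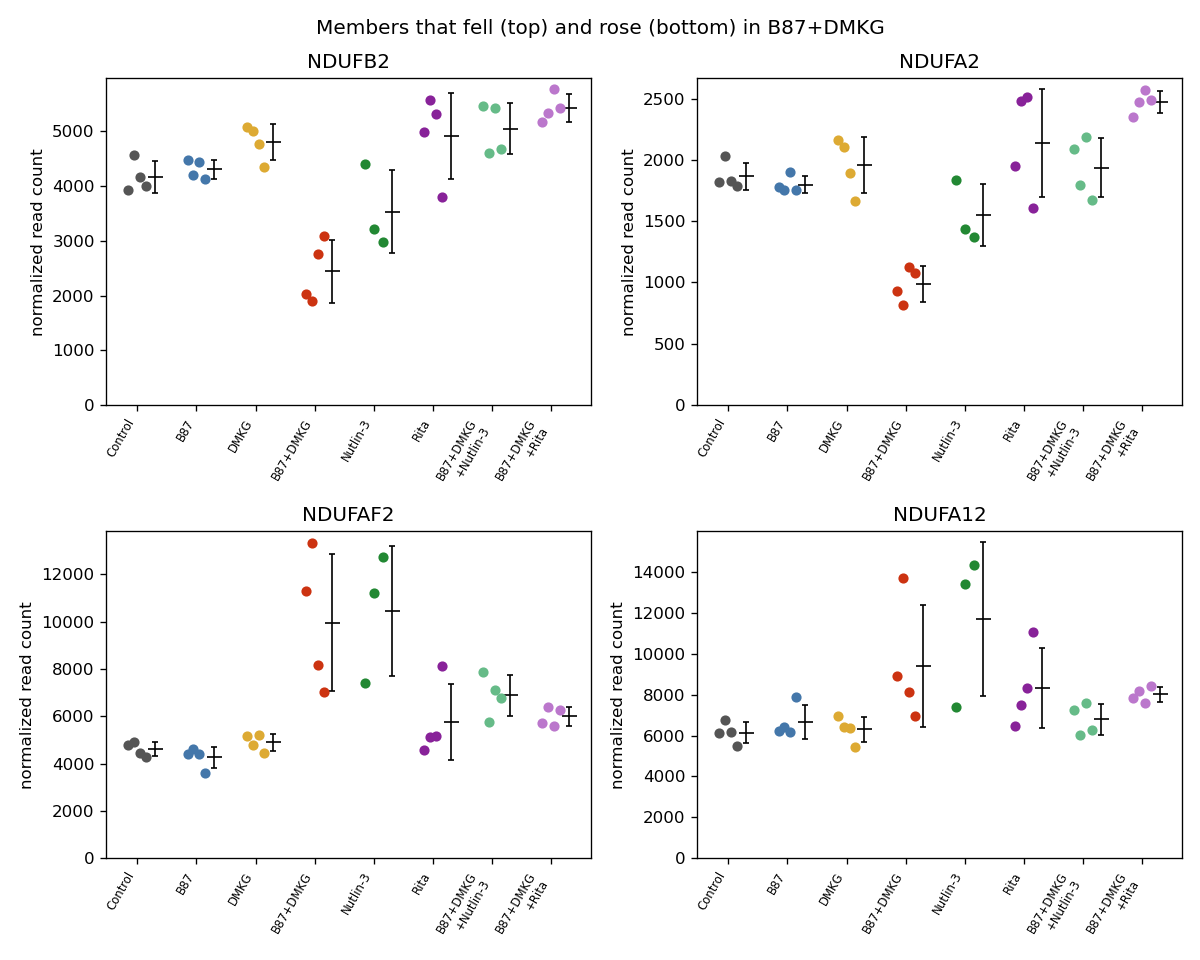
Normalized read counts of NDUFB2 and NDUFA2 (top) and NDUFAF2 and NDUFA12 (bottom) in each library (points), with the mean and SD of each group (bar) and axes from 0. The B87+DMKG group has the lowest mean for the top pair, and B87+DMKG and Nutlin-3 hold the highest libraries for the bottom pair.

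The size of these changes differed between libraries of a group, and for NDUFAF2, NDUFA12 and NDUFB2 their order within B87+DMKG was that of the mitochondrial share. In B87+DMKG libraries 1 to 4 the share was 5.39%, 7.51%, 4.21% and 2.24%. NDUFAF2 was highest and NDUFB2 and NDUFA2 were lowest in library 2, which had the highest share, while NDUFAF2 and NDUFA12 were lowest and NDUFB2 highest in library 4. In Nutlin-3 libraries 1 to 3 the share was 2.42%, 4.33% and 5.39%, and NDUFAF2 held 7388, 11217 and 12748 counts while NDUFB2 held 4396, 3223 and 2971. Rita library 4 had 4.76% and 8148 counts of NDUFAF2, against 2.69% to 2.93% and 4592, 5135 and 5161 counts in the other 3. The part of the mitochondrial share in these values was not tested. Without the 6 libraries, the B87+DMKG change was 0.61 for NDUFAF2, -0.43 for NDUFB2 and -0.79 for NDUFA2. NDUFA12 (0.18) and NDUFAF3 (-0.22) were no longer called. NDUFB11, a distal arm subunit, held 5634, 5914, 8550 and 10467 counts in the 4 B87+DMKG libraries and 9574 to 11217 in Control. Its fall (-0.45 ± 0.15 SE, adjusted p = 0.0115) rested on the libraries of high share and was 0.06 without them. NDUFA5 counts ranked as the share did, at 5086, 5372, 3389 and 2436 against 6087, 5255, 6112 and 5980 in Control, so NDUFA5 lay lowest in the library of lowest share. Its change of -0.59 ± 0.16 (adjusted p = 0.00156) was -1.26 without those libraries.

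**Figure D4:**
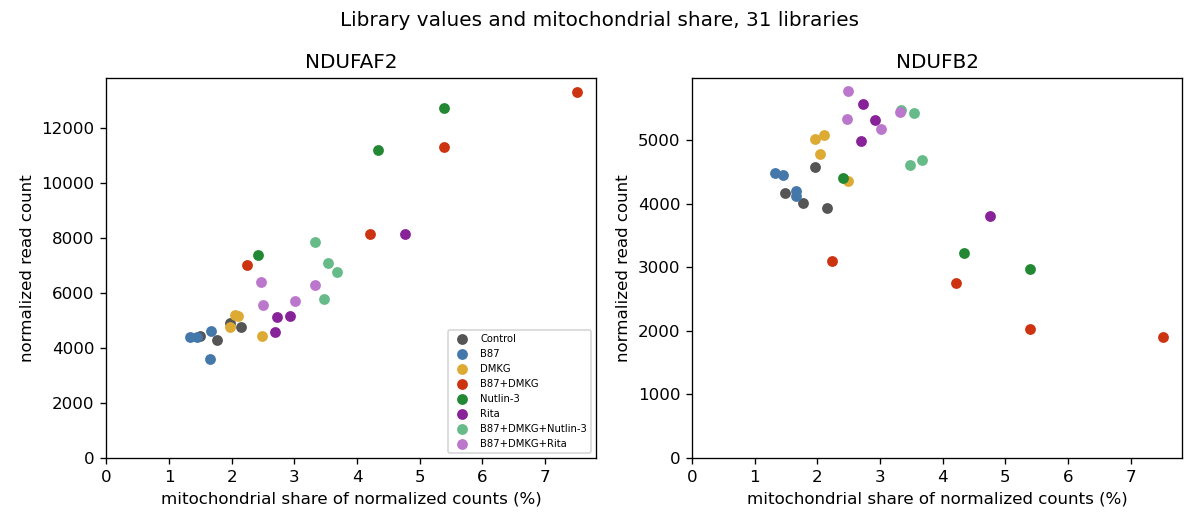
Normalized read counts of NDUFAF2 (left) and NDUFB2 (right) against the share of normalized counts from the mitochondrial genome in each of the 31 libraries, colored by group, with both axes from 0. Libraries above 4% hold the 3 highest NDUFAF2 values among B87+DMKG and the 2 highest among Nutlin-3, and the lowest NDUFB2 values of Nutlin-3.

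The member that fell furthest in B87+DMKG, NDUFAF6, and the one that rose most, NDUFAF2, are both assembly factors, with 4 of 7 NDUFAF rows lower and 1 higher. NDUFAF6 (chr8:95970236-96088396, hg19) had 630, 676, 732 and 647 counts in Control, 311, 336, 390 and 370 in B87+DMKG, 468, 390, 479 and 472 in B87+DMKG+Nutlin-3, and 554, 548, 503 and 521 in B87+DMKG+Rita. The 3 treated groups lay below Control in every library, and B87+DMKG had the lowest mean. NDUFAF4, which works with NDUFAF3 early in assembly, held 2974, 2963, 3030 and 3064 counts in Control, 1672, 1875, 1582 and 1336 in B87+DMKG, 2295, 2121, 2279 and 2037 in B87+DMKG+Nutlin-3, and 3428, 3296, 3618 and 3439 in B87+DMKG+Rita. None of these 4 groups of NDUFAF4 overlapped another. It was the member called in most comparisons, 12 of 13, higher in 6 and lower in 6. NDUFAF7, a methyltransferase needed for assembly, fell in B87+DMKG (-0.24 ± 0.09 SE, adjusted p = 0.0279), a call lost after quantile normalization (-0.11) and without Control replicate 3 (-0.19) or B87+DMKG replicate 3 (-0.20) or 4 (-0.15) but larger without the libraries of high mitochondrial share (-0.51), and NDUFAF5, which modifies NDUFS7, gave -0.00 ± 0.08. NDUFAF1, an early assembly factor, was called in 2 of 13 comparisons.

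NDUFAB1, the mitochondrial acyl carrier protein that is also a subunit of complex I, had different levels in the triple treatments, although these were not compared with each other by a test. It held 7701, 9344, 9256 and 8821 counts in Control, 5379, 5736, 6024 and 5348 in B87+DMKG, 6221, 5797, 6039 and 5588 in B87+DMKG+Nutlin-3, and 9699, 10092, 10706 and 10320 in B87+DMKG+Rita. The Nutlin-3 triple treatment stayed within or near the range of B87+DMKG (0.07 ± 0.07 SE, adjusted p = 0.358), whereas the Rita triple treatment lay above all Control libraries (0.86 ± 0.07 against B87+DMKG, adjusted p = 2.65e-12). Its change from Control with B87+DMKG was -0.64 ± 0.07 (adjusted p = 1.96e-09). With B87+DMKG+Rita the change from Control was 0.22, and with equal totals it was -0.037 and not called. NDUFV3 took yet another course, with 1976, 2129, 2040 and 1850 counts in Control, 1702, 1458, 1426 and 1303 in DMKG, and 2281, 2548, 2474 and 2231 in B87+DMKG. Its DMKG libraries lay below and its B87+DMKG libraries above Control, and the combination departed from the sum of its parts by 0.67 ± 0.10 (adjusted p = 5.22e-06).

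Against the sum of the separate effects of B87 and DMKG, the combination was lower for 18 members and higher for 2. Of all rows 48.8% were called (24.1% lower, 24.6% higher). With equal totals the split was 15 lower and 5 higher. After NDUFA4L2, the members furthest below the sum were NDUFB2 (-1.05 ± 0.18 SE, adjusted p = 1.47e-05), NDUFA2 (-0.94 ± 0.17, adjusted p = 4.42e-05) and NDUFAB1 (-0.93 ± 0.10, adjusted p = 3.31e-09). NDUFAF2 departed upward by 1.10 ± 0.23 (adjusted p = 0.000274). NDUFB2 departed by -0.68 and NDUFAF2 by 0.64 without the libraries of high mitochondrial share, both still called.

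Nutlin-3 alone raised 15 members and lowered 8, where 39.1% of all rows were called (18.5% higher, 20.7% lower), but the balance depended on the scaling and the libraries. With equal totals 9 rose and 12 fell, and without libraries 2 and 3 it was 6 and 5 (8 of these 11 were among the 23). NDUFAF2 rose (1.15 ± 0.18 SE, adjusted p = 6.92e-06), as did NDUFA12 (0.88 ± 0.19, adjusted p = 0.000364) and NDUFA1, a small subunit of the proximal membrane arm (0.66 ± 0.14, adjusted p = 0.000257). NDUFAF3 fell (-0.54 ± 0.14, adjusted p = 0.00248), from 2556, 3472, 3133 and 3079 counts in Control to 2712, 1936 and 1727, as did NDUFAF4 (-0.50 ± 0.08, adjusted p = 1.25e-05), NDUFB6 (-0.43 ± 0.11, adjusted p = 0.00183) and NDUFAF6 (-0.40 ± 0.11, adjusted p = 0.00322). Nutlin-3 library 1, with the lowest mitochondrial share of the 3, lay within Control for NDUFAF3. Without libraries 2 and 3, NDUFAF2 (0.68), NDUFAF4 (-0.50) and NDUFB6 (-0.43) kept their calls and NDUFA12 (0.27), NDUFA1 (0.34), NDUFAF3 (-0.17) and NDUFAF6 (-0.28) did not. Of the core rows 3 fell and none rose, while 5 of 7 proximal arm rows rose.

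Rita alone raised 20 members and lowered 2, where 52.1% of all rows were called (25.8% higher, 26.3% lower). Equal totals gave 6 higher and 7 lower, and quantile normalization 13 higher and 1 lower. NDUFA7, a Q module subunit, held 3381, 4018, 3195 and 3028 counts in Control and 4830, 5516, 5760 and 5253 in Rita, with no overlap (0.65 ± 0.09 SE, adjusted p = 4.49e-07). NDUFA3, in the proximal membrane arm, rose by 0.57 ± 0.12 (adjusted p = 0.000185) and NDUFA6, of the Q module, by 0.55 ± 0.08 (adjusted p = 7.15e-07). NDUFAF5 fell from 1028, 1126, 1177 and 1111 counts to 844, 861, 970 and 1044 (-0.26 ± 0.08, adjusted p = 0.00621), with overlap in 1 library, and was not called after quantile normalization (-0.12). NDUFS4, an N module subunit added late, fell (-0.21 ± 0.08, adjusted p = 0.0225), a call lost without Control replicate 2 (-0.17) or Rita replicate 1 (-0.19).

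When Nutlin-3 was added to B87+DMKG, 26 members rose and 3 fell, against 26.5% and 32.3% of all rows (58.9% called). The median log2 fold change of the members was 0.37, and that of all rows -0.05. NDUFB2 rose to 5470, 4603, 5427 and 4685 counts (1.07 ± 0.13 SE against B87+DMKG, adjusted p = 2.3e-08). All lay above the Control libraries, the highest of which held 4573, but the difference of NDUFB2 from Control was not called. NDUFA2 held 2091, 1792, 2185 and 1673, around Control (0.97 ± 0.12, adjusted p = 6.99e-08), and NDUFB11 (0.96 ± 0.15, adjusted p = 2.81e-06) and NDUFAF3 (0.88 ± 0.13, adjusted p = 1.08e-06) rose as well. The rise was 0.70 for NDUFB2 and 0.46 for NDUFB11 without the libraries of high mitochondrial share. NDUFAF2 fell to 7883, 5777, 7112 and 6759 (-0.50 ± 0.17, adjusted p = 0.0111), still above Control. NDUFA12 (-0.43 ± 0.17, adjusted p = 0.0323) and NDUFAF7 (-0.28 ± 0.09, adjusted p = 0.0105) fell too. These 3 falls lost their calls without B87+DMKG replicate 2 (-0.34, -0.23 and -0.21) and were -0.04, -0.04 and -0.01 without the libraries of high mitochondrial share, where 23 members rose and none fell by limma. NDUFA5 stood apart, with 3795, 3299, 3346 and 3612 counts, below every Control library (-0.74 ± 0.16 against Control, adjusted p = 0.000166).

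When Rita was added to B87+DMKG, 34 members rose and 4 fell, against 33.1% and 34.2% of all rows (67.3% called). With equal totals 25 rose and 6 fell. All 6 core rows, 10 of 11 distal arm rows and 6 of 7 proximal arm rows rose, and the median log2 fold change was 0.51 for the members and 0.00 for all rows. NDUFA2 rose to 2351, 2475, 2569 and 2490 counts and NDUFB2 to 5167, 5333, 5773 and 5431, above every B87+DMKG and every Control library (1.33 ± 0.12 SE, adjusted p = 6.92e-11, and 1.18 ± 0.13, adjusted p = 1.79e-09). NDUFAF4 (1.10 ± 0.08, adjusted p = 1.24e-13) and NDUFB11 (1.07 ± 0.15, adjusted p = 2.86e-07) rose too, the last by 0.57 without the libraries of high mitochondrial share. NDUFAF2 fell to 5720, 6413, 5589 and 6286 (-0.69 ± 0.17, adjusted p = 0.000555), below every B87+DMKG library and above every Control library, and without the libraries of high mitochondrial share it was -0.23 and not called. Against Control, the rises of NDUFA2 (0.15), NDUFB2 (0.13) and NDUFAF2 (0.12) in B87+DMKG+Rita lost their calls with equal totals. With Rita added to B87+DMKG, NDUFAF5 fell to 805, 918, 856 and 862 counts (-0.37 ± 0.08, adjusted p = 0.000145). NDUFV3 fell by a small amount (-0.19 ± 0.07, adjusted p = 0.0232), a call lost without B87+DMKG replicate 2 (-0.16) or 3 (-0.17) or B87+DMKG+Rita replicate 2 (-0.17) and without the libraries of high mitochondrial share (-0.10).

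**Figure D5:**
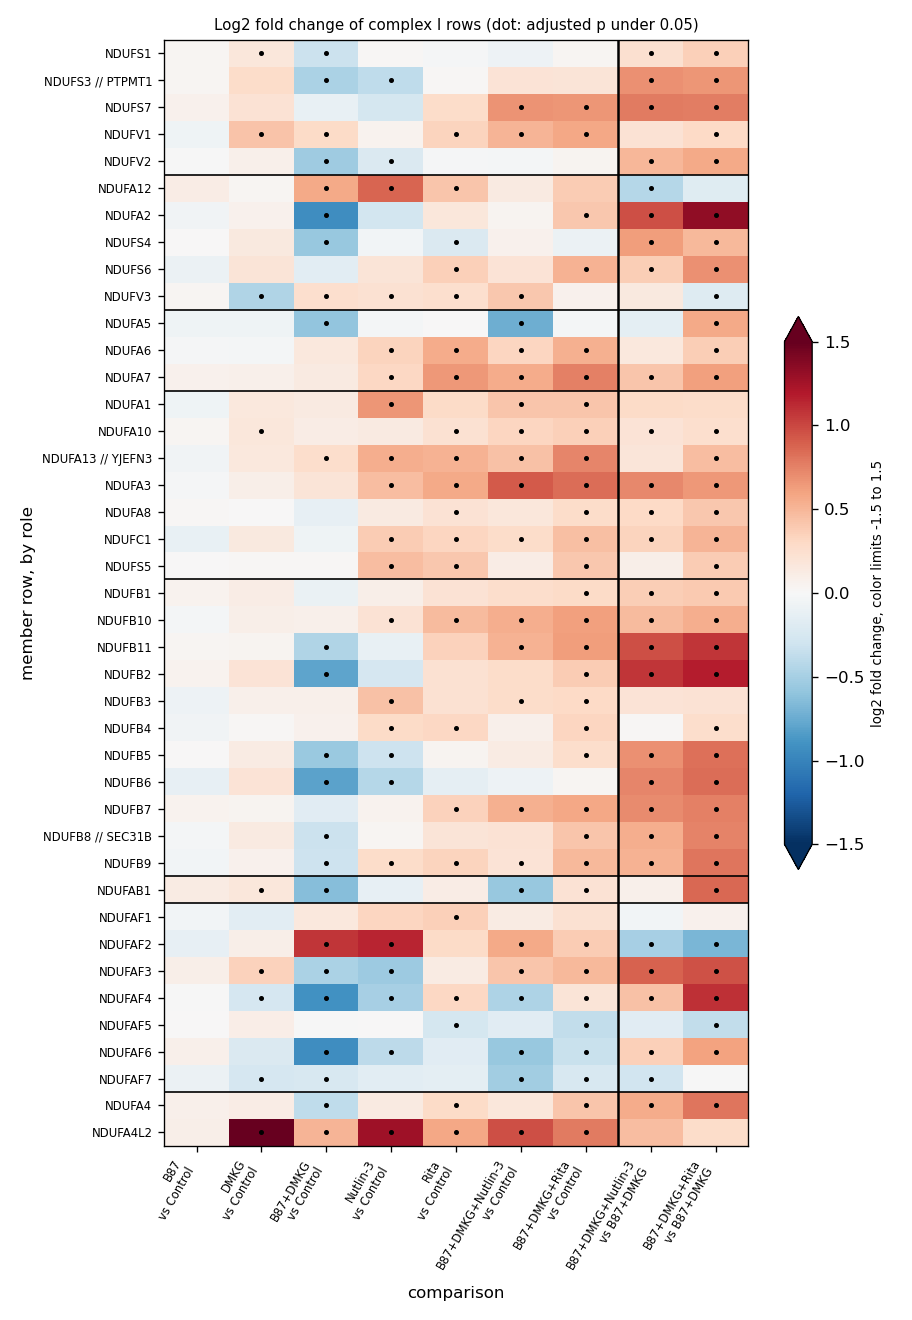
Log2 fold change (color) of 41 tested rows other than antisense, in 7 comparisons with Control and, right of the vertical line, 2 with B87+DMKG, with a dot where the adjusted p was under 0.05. From the top, blocks hold core, N module, Q module, proximal arm and distal arm subunits, NDUFAB1, NDUFAF factors, and NDUFA4 with NDUFA4L2, and the B87 column has no dot.

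Measured against Control, the triple treatments differed from the untreated state in many members. In B87+DMKG+Nutlin-3 20 members were higher and 5 lower, where 58.0% of all rows were called (28.3% higher, 29.7% lower), and 15 and 9 with equal totals. NDUFA3 held 2727, 3082, 2281 and 2049 counts in Control and 5178, 3951, 5593 and 4385 in this group (0.92 ± 0.12 SE, adjusted p = 1.1e-07), and NDUFS7 was higher by 0.68 ± 0.17 (adjusted p = 0.00135). NDUFAF6 (-0.57 ± 0.10, adjusted p = 1.01e-05), NDUFAB1 (-0.57 ± 0.07, adjusted p = 1.8e-08) and NDUFAF7 (-0.52 ± 0.09, adjusted p = 1.93e-05) were lower. In B87+DMKG+Rita 30 were higher and 4 lower, where 60.1% of all rows were called (29.4% higher, 30.7% lower), and 10 and 9 with equal totals. NDUFA3 held 4203, 4672, 4175 and 4952 counts there (0.84 ± 0.12, adjusted p = 4.94e-07), and NDUFA7 held 5664, 5794, 5727 and 5649 (0.75 ± 0.09, adjusted p = 2.24e-08). The NDUFA13 // YJEFN3 row rose by 0.73 ± 0.11 (adjusted p = 7.21e-07). The lower ones were NDUFAF5 (-0.37 ± 0.08, adjusted p = 0.000167), NDUFAF6 (-0.33 ± 0.10, adjusted p = 0.00405), NDUFAF7 (-0.24 ± 0.09, adjusted p = 0.0253) and the antisense row NDUFB2-AS1, and after quantile normalization NDUFAF5, NDUFAF6 and NDUFAF7 were no longer called (-0.16, -0.08 and -0.03).

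Counted by libraries alone, the groups did not overlap for 0 of 45 members in B87 against Control (7.09% of all rows), 9 in DMKG (39.6%) and 17 in B87+DMKG (51.9%). In B87+DMKG against DMKG there were 21 such members (45.6% of all rows). Nutlin-3 gave 22 (41.9%), with 3 libraries, and Rita 21 (53.0%). The triple treatments gave 27 with Nutlin-3 (58.1%) and 37 with Rita (63.9%) against Control, and 25 (47.7%) and 33 (59.3%) against B87+DMKG.

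The effect of Nutlin-3 differed with and without B87+DMKG for 24 members, 19 upward and 5 downward. Of all rows 56.9% were called (26.4% upward, 30.6% downward). The effect was higher by 1.43 ± 0.19 (SE) for NDUFAF3 (adjusted p = 2.91e-07), 1.33 ± 0.18 for NDUFB2 (adjusted p = 5.59e-07), 1.25 ± 0.18 for NDUFA2 (adjusted p = 8.21e-07) and 1.16 ± 0.15 for NDUFB6 (adjusted p = 9.65e-08). It was lower by -1.64 ± 0.24 for NDUFAF2 (adjusted p = 1.48e-06). Without the libraries of high mitochondrial share these were 0.80, 0.62, 0.86, 1.23 and -0.72, all called. The effect of Rita differed for 21 members, 18 upward and 3 downward, where 48.6% of all rows were called (24.2% upward, 24.4% downward). NDUFA2 (1.16 ± 0.17, adjusted p = 2.18e-06), NDUFB6 (0.98 ± 0.14, adjusted p = 1.33e-06) and NDUFB2 (0.95 ± 0.18, adjusted p = 5.83e-05) led upward and NDUFAF2 (-0.97 ± 0.23, adjusted p = 0.000995) downward. Without those libraries NDUFB2 was 0.46 and still called, and NDUFAF2 was -0.34 and not called.

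The 3 antisense rows were low. NDUFB2-AS1, which overlaps the start of NDUFB2, held 38.5, 58.6, 50.1 and 71.1 counts in Control, 32.0, 59.8, 10.2 and 14.4 in DMKG, 75.0, 32.0, 59.7 and 84.8 in B87+DMKG, and 35.1, 19.8, 14.4 and 30.1 in B87+DMKG+Rita. Among the DMKG libraries, 2 lay within Control and 1, 3 and 4 below it, and the change with DMKG (-1.16 ± 0.39 SE, adjusted p = 0.0164) was lost without replicate 3 (-0.79) or 4 (-0.94) of DMKG or replicate 4 of Control (-1.02). From DMKG to B87+DMKG it rose by 1.31 ± 0.39 (adjusted p = 0.00451), which was 0.42 without DMKG 3 and 4, and with Rita added it fell (-1.30 ± 0.39, adjusted p = 0.00418). NDUFA6-AS1 was higher in B87+DMKG+Nutlin-3 than in Control (0.94 ± 0.29, adjusted p = 0.00586), and NDUFV2-AS1 was called once, when Rita was added (0.91 ± 0.40, adjusted p = 0.0468), a call lost without any of 5 single libraries, the lowest value being 0.61 without B87+DMKG replicate 1, and 0.18 without the libraries of high mitochondrial share. Whether counting used the strand is not given in the sources used here. Where NDUFB2-AS1 and NDUFV2-AS1 overlap NDUFB2 and NDUFV2, reads of the row and of its partner gene therefore cannot be told apart. The NDUFA6-AS1 row (chr22:42486934-42532702, hg19) does not overlap the NDUFA6 row (chr22:42481531-42486888). Of 39 single-gene member rows, 17 have a pseudogene named after them in GENCODE v29 (56 pseudogenes), and reads shared with such copies make their values less certain.

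Finally, 4 further rows hold a complex I gene after another symbol and were left out by the pattern. The row of NDUFC2 with KCTD14 and NDUFC2-KCTD14, singled out after its values were seen, fell by more than any member in B87+DMKG (-1.93 ± 0.10 SE, adjusted p = 1.3e-15) and was lower still with Nutlin-3 added (-1.12 ± 0.10 against B87+DMKG, adjusted p = 1.97e-10), while with Rita added it rose (2.17 ± 0.10, adjusted p = 3.05e-17). The values cannot be divided among its 3 genes. GALNT8 // NDUFA9 gave -0.74 ± 0.07 in B87+DMKG (adjusted p = 4.65e-10) and FUT5 // NDUFA11 gave -0.22 ± 0.11 (adjusted p = 0.0937). The 4 rows are given with all libraries only, including those of high mitochondrial share.

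Assembly factors outside the NDUFAF names and the other respiratory complexes are given from fixed lists for comparison. Their values include the libraries of high mitochondrial share and are not given without them. Of 11 further complex I assembly factors, 4 fell and 1 rose in B87+DMKG against Control, among them TMEM70, which aids assembly of complex I and ATP synthase (-1.78), and NUBPL, which delivers iron-sulfur clusters (-1.10). Over all rows 30.8% fell and 30.2% rose in that comparison. With Rita added 9 of the 11 rose and 1 fell, where 33.1% of all rows rose, and with Nutlin-3 added 5 rose, where 26.5% did. In B87+DMKG 3 of 4 complex II rows, 5 of 9 complex III rows and 5 of 10 complex IV rows fell, while 0, 2 and 2 rose. With Rita added 4 of 4, 7 of 9 and 10 of 10 rose. Among 12 regulators of respiratory genes 8 fell and 4 rose in B87+DMKG, with TFAM and TFB2M, which drive transcription of mitochondrial DNA, at -1.72 and -1.90. PPARGC1A, a coactivator of respiratory gene expression, rose (1.08), and with Rita added it fell (-2.74) as TFAM rose (1.54).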

How the data were processed

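RNA-seq libraries of H460 cells were deposited as one table of gene counts divided by size factors (a normalized signal, not raw counts). The submitters' processing notes name FastQC, Picard, SAMtools, STAR 2.4.0 and DESeq2, without their order. The notes name the mouse build mm10, but the file header gives hg19 and the genes are human. Whether counting used strand is not given in the sources used here. Rows with an ID but no symbol (51656) stayed in the table and, where they passed the filter below, in the fit.

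Log2(deposited signal + 1) was fitted with limma 3.58.1 in R 4.3.3, with all 31 samples in one fit and a mean-dependent variance trend. The fit used the 16259 rows with a mean of at least 10, and p-values were Benjamini-Hochberg adjusted over all of them. Fold changes are on that scale, which understates low genes. A call is an adjusted p under 0.05. Dividing by the value of 1 read gave whole numbers (within 0.1) in all 31 libraries, but B87+DMKG replicate 4 and B87+DMKG+Nutlin-3 replicate 1 did not pass a second check of that step, so edgeR 4.0.16 and DESeq2 1.42.0 ran on 29. Values of 1 member are not reported here, and it enters only counts and medians. The test was checked on simulated data. Members and lists were chosen with earlier results of these data known. In each comparison, up to 4 called members in each direction were named by size of change, beside the core subunits, NDUFA4 and NDUFA4L2. NDUFB11 and NDUFA12 library values, the NDUFC2 row, the printed promoters, the motifs and the 4% limit on mitochondrial share were chosen after values were seen. Alternatives were other pseudocounts, filters, scalings and sample sets, the replicate block, and leaving out libraries.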

Additional observations from a re-analysis of the deposited data

Results flagged for a closer look

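Outlying libraries were sought for NDUFA4L2, NDUFA4 and the called members with the largest rise and the largest fall of each comparison. Of 84 combinations of gene and group of 4, 7 had a library whose gap to the others was large against the range of the group. Chance flags about 1 in 20 groups. NDUFA12, NDUFB11, NDUFS1, NDUFAF4, NDUFAB1 and NDUFV3, whose library values are also given, were not examined. Control replicate 2 was highest for NDUFA2 (2032 normalized counts) and lowest for NDUFA5 (5255). Rita replicate 4, which had a mitochondrial share of 4.76%, was highest for NDUFAF2 (8148) and NDUFA5 (6779), and Rita replicate 1 was lowest for NDUFA4L2 (125). B87 replicate 1 was highest for NDUFAF5 (1179), and B87+DMKG+Nutlin-3 replicate 2 was lowest for NDUFAF6 (390).

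Effects that differed between settings, by the limma interaction term, are given on the log2 scale. The combination of B87 and DMKG departed from the sum of its parts by 1.10 for NDUFAF2 and 0.67 for NDUFV3, and by -2.52 for NDUFA4L2, -1.05 for NDUFB2, -0.94 for NDUFA2 and -0.93 for NDUFAB1. The effect of Nutlin-3 differed with and without B87+DMKG by 1.43 for NDUFAF3, 1.33 for NDUFB2, 1.25 for NDUFA2 and 1.16 for NDUFB6, and by -1.64 for NDUFAF2, -1.31 for NDUFA12, -0.81 for NDUFA4L2 and -0.37 for NDUFS5. Without the libraries of high mitochondrial share NDUFA12 was -0.31 and NDUFS5 -0.26, neither called, and NDUFA4L2 was -1.62. The NDUFA4L2 call was lost in 7 of 26 settings, among them those without Control 3 (-0.71), B87+DMKG 4 (-0.63), Nutlin-3 1 (-0.66) or 3 (-0.62), or B87+DMKG+Nutlin-3 2 (-0.64). The effect of Rita differed by 1.16 for NDUFA2, 0.98 for NDUFB6, 0.95 for NDUFB2 and 0.84 for NDUFAF3, and by -0.97 for NDUFAF2, -0.60 for NDUFA12 and -0.44 for NDUFV3. NDUFA12 lost its call in 12 of 27 settings, 10 of them with 1 library left out, the smallest of these being -0.40 without B87+DMKG 2. Without the libraries of high mitochondrial share NDUFA12 was -0.060 and NDUFV3 -0.31, neither called, and NDUFAF3 was 0.47.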

How the results depend on the processing

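The number of members called stayed within 1.5 times its main value in each comparison with a call, except for 10 with DMKG, which became 6 without a filter on low values and 6 without Control replicate 4 or DMKG replicate 2, 23 with Nutlin-3, which became 11 without the libraries of high mitochondrial share, 22 with Rita, which became 14 after quantile normalization and 13 with equal totals, and 34 with B87+DMKG+Rita against Control, which became 19 with equal totals. The cause was not tested. Leaving out 1 library at a time gave 0 to 0 calls with B87, 6 to 11 with DMKG, 21 to 29 with B87+DMKG, 24 to 30 with B87+DMKG against DMKG, 16 to 26 with Nutlin-3, 18 to 24 with Rita, 22 to 30 and 29 to 33 with Nutlin-3 or Rita added against Control, 28 to 33 and 36 to 38 against B87+DMKG, 18 to 22 for the departure from additivity, and 20 to 24 and 19 to 22 for the differing effects of Nutlin-3 and Rita. Of the single members reported, under all alternatives, 321 values lost a call, 152 gained one and 14 reversed, against 7874 that did neither. Without the libraries of high mitochondrial share, NDUFA5 turned to 0.53 with Nutlin-3 added and 0.91 for the differing effect of Nutlin-3, NDUFB11 to 0.056 and 0.012 with B87+DMKG against Control and DMKG, NDUFS1 to -0.21 with Nutlin-3, NDUFS7 to 0.40 with B87+DMKG and -0.082 for the differing effect of Nutlin-3, and NDUFV1 to -0.039 with Rita added. In B87+DMKG+Rita against Control, equal totals turned NDUFAB1 to -0.037, NDUFAF4 to -0.062, NDUFB6 to -0.23, NDUFS1 to -0.23, NDUFV2 to -0.22 and NDUFV3 to -0.20.

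Replicate numbers share only a number: in 0 of 28 pairs of groups did every same-numbered pair correlate above 0.1, and 5 of 31 samples correlated best with their own number. With the replicate block, 25 members were called with B87+DMKG and 37 with Rita added to it, against 25 and 38 without. With 3 or 4 libraries per group, small changes of low rows such as the antisense transcripts were not detectable.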
